A study of Mus musculus with 23 samples.

Results

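RNA levels of 10 bone morphogenetic protein (BMP) pathway genes, of the 18412 genes in the deposited tables, were followed in mouse embryonic stem (ES) cells. These were the ligands Bmp4 and Bmp7, the secreted antagonist Nog, the pseudoreceptor Bambi, the target genes Id1, Id2, Id3 and Id4, and the homeobox genes Msx1 and Msx2. They were taken by symbol from the exon and intron tables, and all 10 were present. Polyadenylated RNA was sequenced from 23 samples in 11 groups and 3 series. The groups compare ES cells with and without Argonaute proteins, which carry microRNAs to their target messenger RNAs. In the genetic series, the clones C62 and C86 (n = 2) are null for Blm and for Ago1, Ago2, Ago3 and Ago4 and carry CreERT2. The line E7 (n = 3) has the same null alleles and CreERT2 and also carries hAgo2fl, and B9 (n = 2) is null for Blm and for Ago1, Ago3 and Ago4. AB2.2 (n = 2) is the wild type, the only group that keeps Blm. TT-FHAgo2 cells served for the time course and for the rescue; they are null for Blm and all 4 Argonautes, carry CreERT2 and make Ago2 when given doxycycline. They were kept on 0.1 µg/mL, and the labels give 2.5 µg/mL as the dose at which Ago2 reaches its wild type amount. For the time course the cells had 2.5 µg/mL doxycycline for 48 h and then none for 0, 24, 48 or 96 h (n = 2 each). In the rescue, cells held for 96 h without it (n = 2) were set beside cells that then got 0.1 or 2.5 µg/mL for 48 h (n = 2 per dose).

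BMP ligands bind pairs of type I and type II receptors, which phosphorylate Smad1 and Smad5, and these enter the nucleus with Smad4 to switch on target genes. In mouse ES cells grown with serum and leukaemia inhibitory factor, the best known of these targets are the Id genes. Their products have no DNA-binding region and hold E proteins and related factors off DNA, which in mouse ES cells is known to hold back neural differentiation.

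The exon tables held 13.5 to 53.7 M (mega) reads per library in the genetic series, 32.9 to 62.4 M for the time course and 24.7 to 53.8 M for the rescue. The values below are normalised reads of single libraries, worked out from the deposited group means, or means of a group where so named or given with an SD. Tables of different series were normalised apart. The libraries of a group are numbered in no known order. Those of the clones are C62 and C86, so their spread lies between clones, and which is which is unknown. For the other groups nothing says that the libraries came from separate cultures. TT-FHAgo2 is described as clonal. The p-values therefore measure only the spread between these libraries. Ago1 had 0 reads in every mutant library and 3514 and 4693 normalised reads in the wild type. Ago3 had 1326 and 1568 normalised reads in B9 and 1227 to 1963 in E7, against 366 and 607 in the wild type. The clones had 578 and 2146, which overlapped with the wild type. Ago4 had 5.75 and 6.73 in B9 and 6.39 to 18.4 in E7. Its 25.1 and 25.3 in the clones lay between the 7.82 and 48.1 of the wild type. Mean Ago3 reads fell from 4533 at 0 h to 2181 at 96 h. Gene-wide reads of Ago3 and Ago4 thus do not check these null alleles. Gene-wide Ago2 reads stayed between 10771 and 12167 in the time course, with 5284 to 7776 among the rescue libraries, which checks nothing, since these reads do not set the deleted exons or the transgene apart from the rest of the gene. The 10 ES cell markers had reads in every group, and their sum was 512413 to 553647 over the time course, and 378541 to 411477 over the rescue. The time groups differ in hours of culture as well as in doxycycline, and these cannot be told apart. The rescued groups were likewise 48 h longer in culture than the cells without it.

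Per kilobase of exon, the order of the members after 96 h without doxycycline was led by Id1 with 1735 ± 79.3 normalised reads (SD, n = 2, as below). Id3 at 987 ± 55.5 and Id4 at 972 ± 49.6 overlapped, and Id2 followed at 768 ± 91.4, Bmp4 at 163 ± 4.50 and Msx2 at 127. Bambi at 112 ± 2.82 and Bmp7 at 109 ± 6.39 overlapped too, and Msx1 at 14.8 ± 4.69 and Nog at 5.69 ± 2.33 were lowest. At 0 h the order was led by Id3 with 1954 ± 69.4 per kb and Id1 with 1724 ± 82.8. Id2 had 729 ± 29.1 per kb, Bmp4 547 ± 3.17, Id4 463 ± 24.2 and Bambi 144 ± 4.81. Bmp7 at 49.1 ± 5.38 and Msx2 at 39.1 ± 9.13 were the only neighbours at 0 h whose libraries overlapped, and Nog at 20.7 ± 3.70 stood above Msx1 at 11.9 ± 4.05.

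The ligands moved in opposite directions when doxycycline was withdrawn. Bmp4, which lies at chr14:46383520-46390669 on the minus strand (GRCm38, the genome build of mm10, from GENCODE), encodes a ligand that supports self-renewal of mouse ES cells in serum. Its libraries had 1121 and 1131 normalised exon reads at 0 h, 575 and 589.7 after 24 h, 379 and 400.3 after 48 h, and 329 and 342 after 96 h. The libraries at every time lay below the earlier ones. Against 0 h the log2 change was -0.95 ± 0.10 at 24 h (SE, limma adjusted p = 4.92e-08), -1.53 ± 0.10 at 48 h (adjusted p = 6.23e-12) and -1.74 ± 0.10 at 96 h (adjusted p = 4.32e-13), the last a 3.35-fold lower level. The step from 24 to 48 h passed the test (-0.58 ± 0.10, adjusted p = 7.50e-05) and that from 48 to 96 h did not (-0.21 ± 0.10, adjusted p = 0.103).

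Bmp7, at chr2:172868012-172940321 on the minus strand, encodes a ligand that can pair with Bmp4 in heterodimers. It had 166 and 194 normalised exon reads at 0 h, 357 and 466 after 24 h, 427 and 483 after 48 h, and 382 and 415 after 96 h. All later libraries lay above 0 h; those at 24 h overlapped with both later times, and those at 96 h lay below those at 48 h. The log2 change against 0 h was 1.18 ± 0.14 at 24 h (adjusted p = 3.58e-07), 1.33 ± 0.14 at 48 h (adjusted p = 2.20e-08) and 1.14 ± 0.14 at 96 h (adjusted p = 2.21e-07). Of the summed level of both ligands per kilobase, Bmp4 made up 91.2 and 92.3% at 0 h, 68.8 and 74.6% after 24 h, 58.3 and 62.5% after 48 h, and 59.5 and 60.6% after 96 h.

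The promoter window of Bmp4 is shown with those of Id3, Id4 and Msx2, the other members with the largest changes that have one in the table, because BMP Smads are known to bind GGCGCC and the Smad box GTCT. Each window runs from 250 bases before to 50 bases after the start of the gene (RefSeq, GRCm38.p6, printed 5′ to 3′ on the strand of the gene), and capitals mark GGCGCC, and the Smad box on either strand (GTCT, or AGAC on the other).
Bmp4 chr14:46390620-46390919 (minus strand): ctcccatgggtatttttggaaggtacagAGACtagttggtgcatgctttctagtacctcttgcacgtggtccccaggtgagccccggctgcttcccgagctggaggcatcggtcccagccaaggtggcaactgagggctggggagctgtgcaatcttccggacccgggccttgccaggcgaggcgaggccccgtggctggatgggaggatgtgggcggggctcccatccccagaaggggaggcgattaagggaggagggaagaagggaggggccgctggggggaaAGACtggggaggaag
Id3 chr4:136143572-136143871 (plus strand): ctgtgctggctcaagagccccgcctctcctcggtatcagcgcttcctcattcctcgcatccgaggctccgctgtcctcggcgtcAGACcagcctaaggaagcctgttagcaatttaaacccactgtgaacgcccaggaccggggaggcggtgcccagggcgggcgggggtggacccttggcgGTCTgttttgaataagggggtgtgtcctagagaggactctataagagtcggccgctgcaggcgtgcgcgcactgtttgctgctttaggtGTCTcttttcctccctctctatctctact
Id4 chr13:48260866-48261165 (plus strand): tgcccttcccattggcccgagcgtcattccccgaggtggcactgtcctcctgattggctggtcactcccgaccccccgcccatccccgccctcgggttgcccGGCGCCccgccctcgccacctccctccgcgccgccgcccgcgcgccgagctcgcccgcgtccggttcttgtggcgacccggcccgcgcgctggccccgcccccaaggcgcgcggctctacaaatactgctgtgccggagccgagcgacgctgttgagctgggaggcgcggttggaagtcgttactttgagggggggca
Msx2 chr13:53472731-53473030 (minus strand): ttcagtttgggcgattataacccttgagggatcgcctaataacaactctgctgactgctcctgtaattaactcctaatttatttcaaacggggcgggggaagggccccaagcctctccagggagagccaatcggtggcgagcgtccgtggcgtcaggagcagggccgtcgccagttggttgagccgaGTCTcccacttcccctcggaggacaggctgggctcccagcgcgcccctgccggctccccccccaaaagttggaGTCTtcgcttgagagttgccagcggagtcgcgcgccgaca
Windows for 6 of the 10 members were in the table, those of Id2 and Msx1 besides these. GGCGCC stood in the windows of Id4 and Id2, and in 11.9% of all 32851 windows of this length. The Smad box stood 3 times in the window of Id3, 2 times each in those of Bmp4 and Msx2 and 1 time in that of Id2, and in 88% of all windows. A match is a description of these letters and not a bound site.

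Nog fell with Bmp4. Its product, noggin, binds BMP ligands outside the cell and keeps them from their receptors, and the gene lies at chr11:89300638-89302332 on the minus strand, with no intron. Its libraries had 34.8 and 44.9 normalised exon reads at 0 h, 21.3 and 33.5 after 24 h, 9.03 and 19.3 after 48 h, and 7.77 and 14.1 after 96 h, which rest on 8 to 41 reads each. The 96 h libraries lay below both 0 h libraries, at a log2 change of -1.82 ± 0.50 (adjusted p = 0.00305), and the 48 h libraries did too, at -1.50 ± 0.50 (adjusted p = 0.0123). The 24 h value did not pass (-0.55 ± 0.50, adjusted p = 0.381). The 48 h call was lost without the 48 h library of 12 reads (adjusted p = 0.163) or without the 0 h library of 41 reads (adjusted p = 0.0831).

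Bambi, at chr18:3507923-3516404 on the plus strand, encodes a membrane protein shaped like a type I receptor but without the kinase, which blocks receptor complexes and is itself a BMP target. It had 708 and 742 normalised exon reads at 0 h, 696 and 808 after 24 h, 552 and 596 after 48 h, and 556 and 576 after 96 h. The 24 h libraries spanned those of 0 h, whereas those of 48 and 96 h lay below them. Bambi fell by a log2 of 0.34 ± 0.10 at 48 h (adjusted p = 0.00504) and of 0.36 ± 0.10 at 96 h (adjusted p = 0.00316). Without the deeper 48 h library the 48 h value was -0.28 (adjusted p = 0.0637).

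Among the Id genes, Id3 fell, Id4 rose, and Id1 and Id2 moved for part of the time only. Id3, at chr4:136143497-136145755 on the plus strand, had 1815 and 1909 normalised exon reads at 0 h, 655 and 816 after 24 h, 476 and 581 after 48 h, and 903 and 978 after 96 h. It was thus lowest at 48 h, and its 96 h libraries lay between those of 0 h and 24 h without overlap. The log2 change against 0 h was -1.35 ± 0.10 at 24 h (adjusted p = 2.88e-10), -1.82 ± 0.10 at 48 h (adjusted p = 5.04e-13) and -0.98 ± 0.10 at 96 h (adjusted p = 1.43e-08). Between 48 and 96 h the level rose by 0.84 ± 0.10 (adjusted p = 1.08e-06).

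Id4, at chr13:48261228-48266026 on the plus strand, had 739.6 and 796 normalised exon reads at 0 h, 1102 and 1108 after 24 h, 1633 and 1728 after 48 h, and 1555 and 1671 after 96 h. It rose by a log2 of 0.53 ± 0.07 by 24 h (adjusted p = 3.53e-06), 1.13 ± 0.07 by 48 h (adjusted p = 6.63e-12) and 1.07 ± 0.07 by 96 h (adjusted p = 1.22e-11), a 2.10-fold higher level. The libraries of 48 and 96 h overlapped, and the change between them was -0.06 ± 0.07 (adjusted p = 0.573). The antisense transcripts A330033J07Rik and Gm49291 overlap Id4, Gm15222 and Gm15217 overlap Bmp4 on its opposite strand, and GENCODE holds a pseudogene of Bambi, so that reads of these could be shared. The libraries are strand-specific, but whether the counting used strand is not given in the sources used here.

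Id1, at chr2:152736251-152737410 on the plus strand, had 1556 and 1665 normalised exon reads at 0 h, 1709 and 1854 after 24 h, 1184 and 1352 after 48 h, and 1568 and 1673 after 96 h. The 24 h libraries lay above all others, without passing against 0 h (0.15, adjusted p = 0.11), and the 48 h libraries lay below all others, with a log2 change of -0.35 ± 0.08 against 0 h (adjusted p = 0.000317) and -0.49 ± 0.08 against 24 h (adjusted p = 1.61e-05). At 96 h the change against 0 h was 0.01 with a 95% interval of -0.15 to 0.16 (adjusted p = 0.927).

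Id2, at chr12:25093799-25097140 on the minus strand, had 902 and 954 normalised exon reads at 0 h, 1263 and 1289.9 after 24 h, 1000.1 and 1155 after 48 h, and 895 and 1059.7 after 96 h. The 24 h libraries lay above all others and the 96 h libraries spanned those of 0 h. It rose by a log2 of 0.46 ± 0.09 at 24 h (adjusted p = 0.000163). The smaller value at 48 h (0.21 ± 0.09, adjusted p = 0.0426) was lost without either 0 h library (adjusted p = 0.196 and 0.0565), without the shallower 48 h library (0.11, adjusted p = 0.423) or with no filter on low values (adjusted p = 0.0752). At 96 h the change was 0.07 with a 95% interval of -0.11 to 0.26 (adjusted p = 0.504).

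Summed per kilobase, the Id genes had 4857 and 4883 normalised reads at 0 h, 4199 and 4498 after 24 h, 3538 and 4006 after 48 h, and 4337 and 4587 after 96 h. Id3 made up 39.0 and 41.2% of that sum at 0 h, 16.4 and 19.0% after 24 h, 14.1 and 15.2% after 48 h, and 21.9 and 22.4% after 96 h. Id4 made up 9.12 and 9.88% at 0 h, 14.8 and 15.9% after 24 h, 26.0 and 27.8% after 48 h, and 20.4 and 23.2% after 96 h. The share of Id1 stayed between 34.3 and 44.1% in all 8 libraries. In every library from 24 h on, Id3 had a smaller and Id4 a larger share than at 0 h, and the sum was lowest at 48 h.

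**Figure D1:**
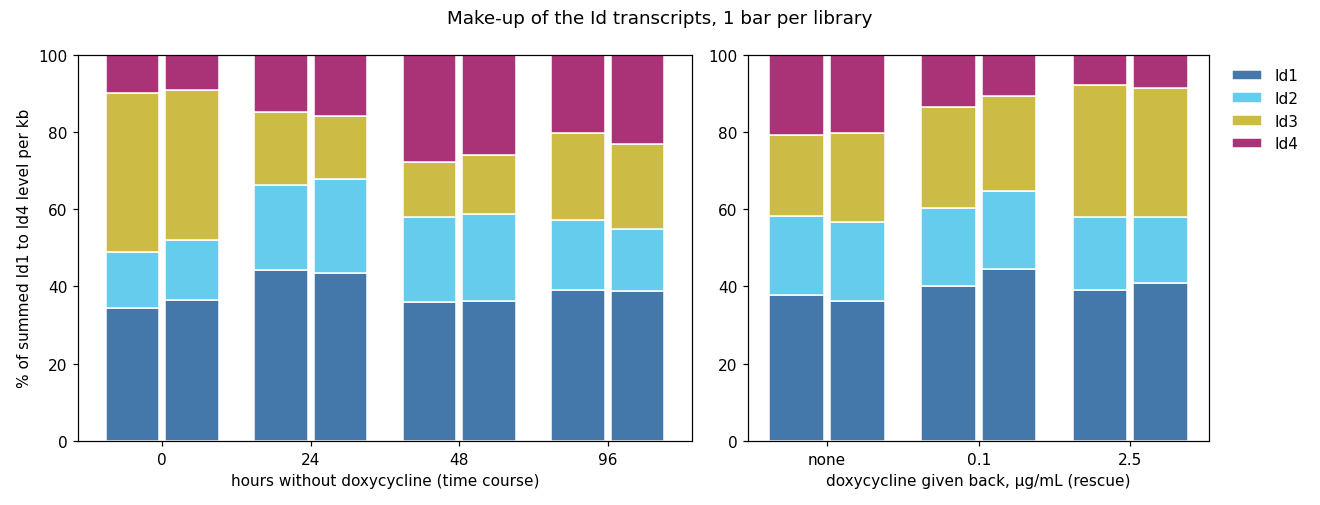
Share of Id1, Id2, Id3 and Id4 in their summed level per kilobase of exon (y axis, %), 1 bar per library, by hours without doxycycline (left) and by doxycycline given back in µg/mL (right). Id3 holds at most 22.4% from 24 h on, against 39.0 and 41.2% at 0 h, and Id4 holds 7.85 and 8.63% on 2.5 µg/mL, against 20.4 and 20.8% with none.

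The Msx genes encode homeobox repressors that BMP induces in many embryonic tissues. Msx2, at chr13:53466884-53473074 on the minus strand, had 70.5 and 98.5 normalised exon reads at 0 h, 191 and 242 after 24 h, 204 and 239 after 48 h, and 274 in both libraries after 96 h. Every later library lay above both at 0 h. The log2 change against 0 h was 1.36 ± 0.19 at 24 h (adjusted p = 2.40e-06), 1.40 ± 0.19 at 48 h (adjusted p = 7.53e-07) and 1.70 ± 0.19 at 96 h (adjusted p = 3.00e-08), a 3.26-fold higher level. Msx1, at chr5:37820485-37824583 on the minus strand, stayed between 17.4 and 36.3 normalised exon reads in the time course, from 17 to 46 reads a library. Its log2 value at 96 h was 0.31 with a 95% interval of -0.56 to 1.18 (adjusted p = 0.532).

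Counted together, 4 members rose and 2 fell at 24 h, when 50.7% of the 13652 genes tested were called. At 48 h 4 rose and 5 fell, with 63.3% of all genes called, and at 96 h 3 rose and 4 fell, with 65% called. The median absolute log2 change of the members at 96 h was 1.03, and that of all genes tested was 0.36. The members were chosen with earlier results of these data known, so these medians only describe the set. Between neighbouring times, 1 member rose and 5 fell from 24 to 48 h (39% of all genes called), and 2 rose, Id1 and Id3, and 0 fell from 48 to 96 h (36.4%), where Bmp4 had an unadjusted p under 0.05. The falls of Id2 and Bambi from 24 to 48 h, -0.25 and -0.39, were lost without the deeper 48 h library (adjusted p = 0.358 and 0.0553) or the deeper 24 h library (adjusted p = 0.0817 and 0.0763). That of Id2 was also lost without the shallower 24 h library (adjusted p = 0.12). The comparisons with 0 h share its 2 libraries.

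**Figure D2:**
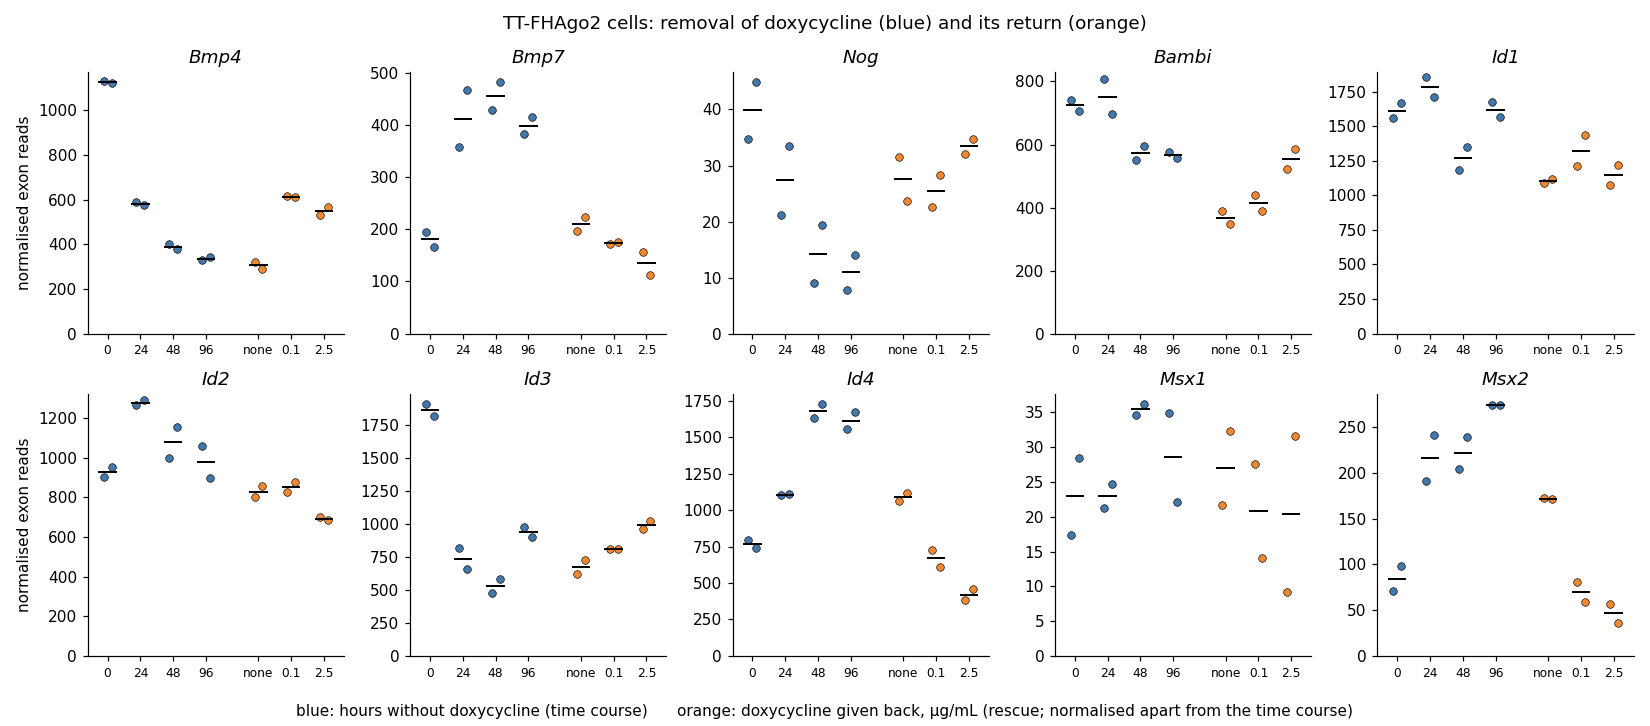
Normalised exon reads (y axis) of the 10 members in each TT-FHAgo2 library, by hours without doxycycline (blue) and by µg/mL of doxycycline given back after 96 h without it (orange); points are libraries and bars are means. Bmp4, Nog and Id3 are lower at every later time than at 0 h on average, and Bmp7, Id4 and Msx2 higher; the series were normalised apart, so blue and orange levels are not comparable.

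Intron reads, which come largely from unspliced RNA, gave a second readout for 7 members in the time course. The tables hold no intron for Nog, and Msx1 and Msx2 had too few intron reads. In the introns of Bmp4 there were 116 and 133 normalised reads at 0 h, 49.3 and 54.9 after 24 h, 13.1 and 27.6 after 48 h, and 18.1 and 41.9 after 96 h. All later libraries lay below those of 0 h, with log2 changes of -1.24 ± 0.38 at 24 h (adjusted p = 0.00979), -2.64 ± 0.38 at 48 h (adjusted p = 1.01e-06) and -2.13 ± 0.38 at 96 h (adjusted p = 2.54e-05). Bmp7 introns had 35.3 and 56.8 normalised reads at 0 h, 94.6 and 109 after 24 h, 86.8 and 119 after 48 h, and 86.9 and 95.3 after 96 h. They rose by 1.16 ± 0.26 at 24 h (adjusted p = 0.000648), 1.16 ± 0.26 at 48 h (adjusted p = 0.000471) and 1.01 ± 0.26 at 96 h (adjusted p = 0.0019).

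Id4 introns had 10.6 and 18.7 normalised reads at 0 h, 24.4 and 27.4 after 24 h, 32.1 and 37.4 after 48 h, and 45.2 and 50.3 after 96 h. They rose by 1.69 ± 0.41 at 96 h (adjusted p = 0.0011), and by 1.24 ± 0.41 at 48 h (adjusted p = 0.0143), a call lost without the deeper 0 h library (adjusted p = 0.15) or either 48 h library (adjusted p = 0.0518 and 0.107). The introns of Id3 had 52.9 normalised reads in both libraries at 0 h, 12.2 and 35.1 after 24 h, 21.9 and 34.4 after 48 h, and 53.4 and 57.2 after 96 h. They fell by 24 h (-1.30 ± 0.40, adjusted p = 0.0111), a call lost without the shallower 24 h library (-0.58, adjusted p = 0.289), without either 0 h library (adjusted p = 0.0565 and 0.0562) or with no filter on low values (adjusted p = 0.0508), whereas the value at 96 h was 0.06 with a 95% interval of -0.76 to 0.88 (adjusted p = 0.918) beside an exon change of -0.98. The Id3 intron value at 48 h was -0.92 ± 0.40 (adjusted p = 0.0633). Introns of Bambi, Id1 and Id2 were not called against 0 h at any time. Their largest values in either direction were 0.80 ± 0.44 for Bambi at 24 h (adjusted p = 0.16), -1.39 ± 0.72 for Id1 at 48 h (adjusted p = 0.119) and 0.19 ± 0.41 for Id2 at 24 h (adjusted p = 0.756). The difference between exon and intron change was not tested. Of the 7 members tested, 1 rose and 2 fell in introns at 24 h (37.2% of 12225 genes called), and 2 rose and 1 fell both at 48 h (43.4%) and at 96 h (44.6%). Between 24 and 48 h 1 fell, Bmp4 (-1.40, adjusted p = 0.0151; 9.19% of all genes called), a call lost without the deeper 48 h library (adjusted p = 0.293) or the shallower 24 h library (adjusted p = 0.0684). Between 48 and 96 h 0 were called by limma (17.1%), and Id3 had an unadjusted p under 0.05. Without the shallower 0 h library the call of Bmp4 at 24 h (-1.15, adjusted p = 0.084) and that of Bmp7 at 96 h (0.67, adjusted p = 0.0655) were lost. With no filter, Bmp4 at 24 h had an adjusted p of 0.0515, and Msx2 introns, with 0 to 18 reads, passed at 24, 48 and 96 h.

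**Figure D3:**
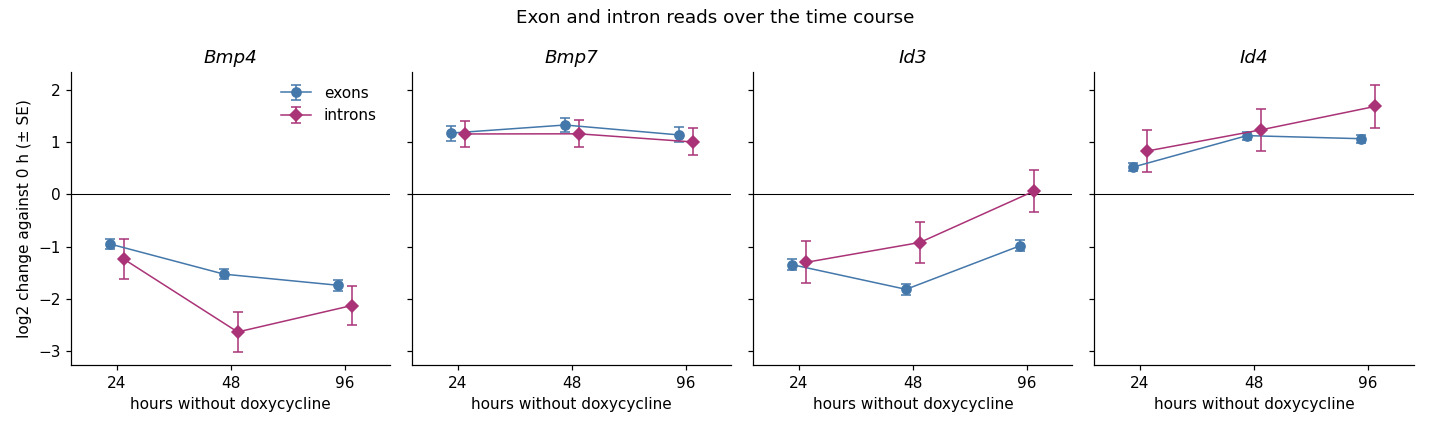
Log2 change against 0 h (y axis, ± SE) in exon reads (blue circles) and intron reads (purple diamonds) of Bmp4, Bmp7, Id3 and Id4, by hours without doxycycline (x axis). Exon and intron values of Bmp4, Bmp7 and Id4 have the same sign at each time, and for Id3 at 96 h the exon value is -0.98 and the intron value 0.06.

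With doxycycline given back, most members changed in the opposite direction. Bmp4 had 289.9 and 321 normalised exon reads without doxycycline, 612 and 616 on 0.1 µg/mL, and 531 and 569 on 2.5 µg/mL. Both doses lay above the cells without doxycycline, at a log2 change of 1.01 ± 0.12 for 0.1 µg/mL (adjusted p = 9.74e-08) and 0.85 ± 0.12 for 2.5 µg/mL (adjusted p = 5.23e-07). The higher dose against the lower was -0.16 with a 95% interval of -0.40 to 0.08 (adjusted p = 0.292). Bmp7 had 196 and 224 without doxycycline, 172 and 175 on 0.1 µg/mL, and 112 and 157 on 2.5 µg/mL. It fell by 0.66 ± 0.20 at 2.5 µg/mL (adjusted p = 0.00587), a call lost without the shallower of the dosed libraries (-0.42, adjusted p = 0.116) or without the shallower of those with no doxycycline (-0.56, adjusted p = 0.072).

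Nog had 23.7 and 31.5 normalised exon reads without doxycycline, 22.6 and 28.3 on 0.1 µg/mL, and 32.0 and 34.8 on 2.5 µg/mL. The value at 2.5 µg/mL was 0.28 with a 95% interval of -0.64 to 1.19 (adjusted p = 0.605). Bambi had 348 and 388 without doxycycline, 390.3 and 439.8 on 0.1 µg/mL, and 521 and 587 on 2.5 µg/mL. It rose at the higher dose (0.59 ± 0.13, adjusted p = 0.000192) and not at the lower (0.17 ± 0.13, adjusted p = 0.279). The doses differed by 0.42 ± 0.13 (adjusted p = 0.00899), or by 0.33 without either the shallower 2.5 µg/mL library (adjusted p = 0.0959) or the shallower 0.1 µg/mL library (adjusted p = 0.0999).

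Id4 had 1065 and 1119.9 normalised exon reads without doxycycline, 612 and 725 on 0.1 µg/mL, and 383 and 457 on 2.5 µg/mL. No libraries of these 3 groups overlapped, and the level fell by 0.71 ± 0.11 at the lower dose (adjusted p = 6.24e-06), by 1.38 ± 0.11 at the higher (adjusted p = 1.66e-11) and by 0.67 ± 0.11 between them (adjusted p = 1.73e-05). Id3 had 618 and 724 without doxycycline, 811 and 812 on 0.1 µg/mL, and 959.8 and 1018 on 2.5 µg/mL, again with no overlap. It rose by 0.56 ± 0.10 at 2.5 µg/mL (adjusted p = 1.08e-05), and the smaller value at 0.1 µg/mL (0.28 ± 0.10, adjusted p = 0.0197) was lost without the deeper library that had no doxycycline (0.16, adjusted p = 0.296) or either library of that dose (adjusted p = 0.0714 and 0.074). Between the doses Id3 rose by 0.28 ± 0.10 (adjusted p = 0.018), which was lost without either 0.1 µg/mL library (adjusted p = 0.069 and 0.0707) or the shallower 2.5 µg/mL library (adjusted p = 0.103).

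Id2 had 802 and 857 normalised exon reads without doxycycline, 824 and 877 on 0.1 µg/mL, and 685 and 698 on 2.5 µg/mL. It fell by 0.26 ± 0.09 at the higher dose (adjusted p = 0.0159), or by 0.21 without the shallower library that had no doxycycline (adjusted p = 0.137) and 0.25 without the shallower 2.5 µg/mL library (adjusted p = 0.0536). It also fell by 0.30 ± 0.09 between the doses (adjusted p = 0.0111), or by 0.25 without the shallower 0.1 µg/mL library (adjusted p = 0.0989). Id1 had 1090.0 and 1119 without doxycycline, 1213 and 1434 on 0.1 µg/mL, and 1075 and 1221 on 2.5 µg/mL. It was higher at 0.1 µg/mL (0.26 ± 0.09, adjusted p = 0.0183), or 0.13 without the shallower library of that dose (adjusted p = 0.329). Without either library that had no doxycycline it no longer passed (adjusted p = 0.121 and 0.0712). At 2.5 µg/mL the value was 0.05 with a 95% interval of -0.13 to 0.23 (adjusted p = 0.616).

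Msx2 had 171 and 172 normalised exon reads without doxycycline, 59.4 and 80.4 on 0.1 µg/mL, and 36.4 and 56.8 on 2.5 µg/mL. All dosed libraries lay below the others, with log2 changes of -1.30 ± 0.29 at 0.1 µg/mL (adjusted p = 0.000532) and -1.89 ± 0.29 at 2.5 µg/mL (adjusted p = 1.92e-06). The change at 2.5 µg/mL, a 3.72-fold lower level, was the largest of any member in the rescue. Msx1 stayed between 9.15 and 32.3 normalised exon reads over the whole rescue, with a value of -0.60 and a 95% interval of -1.79 to 0.60 at 2.5 µg/mL (adjusted p = 0.382).

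At 0.1 µg/mL 3 members rose and 2 fell, with 44.1% of the 13176 genes tested called, and at 2.5 µg/mL 3 rose and 4 fell, with 63.8% called. Between the doses 2 rose and 2 fell, with 41% called. The doses share the libraries without doxycycline. Of the 7 members called at 96 h against 0 h, 6 were called in the opposite direction at 2.5 µg/mL against none, and the exception was Nog. Over all genes tested in both series this held for 6428 of 8734 genes (73.6%), and the comparisons share no library. In introns, 5 members were tested in the rescue and 0 were called by limma at either dose, where 10.3% of all genes were called at 0.1 µg/mL, 46.4% at 2.5 µg/mL and 34.3% between the doses. At an unadjusted p under 0.05 there was 1, Bmp7 at 0.1 µg/mL (-0.97 ± 0.41), and 0 at 2.5 µg/mL, where the intron value of Bmp4 was 0.29 with a 95% interval of -0.62 to 1.20.

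Marker genes of some other cell types moved with these changes, and their part in them was not tested. Each list had 10 genes, all in the tables. Mesoderm markers summed to 1066 to 1114 normalised reads at 96 h, against 564 to 572 at 0 h. They summed to 327 to 349 on 2.5 µg/mL, against 795 to 832 without doxycycline, with T at 0 at 96 h and without doxycycline, and Foxf1 at 0 on 2.5 µg/mL. Trophoblast markers summed to 7212 to 7624 at 96 h, against 4941 to 5070 at 0 h. The same sum was 4097 to 4119 on 2.5 µg/mL, against 5419 to 5603 without doxycycline, with none at 0. Fibroblast markers summed to 16700 to 19504 at 96 h, against 9538 to 9938 at 0 h. The same sum was 7740 to 7838 on 2.5 µg/mL, against 13037 to 13761 without doxycycline. Vim makes up most of it, with a mean of 17707 at 96 h, against 9459 at 0 h, and 7555 on 2.5 µg/mL, against 13245 without doxycycline. Of the others, the collagen gene Col3a1 and Postn were at 0 in all 4 of those groups, Lum also in all but 0 h, Col1a2 at 96 h and on 2.5 µg/mL, and S100a4 on 2.5 µg/mL. Neural and neural crest markers, with Pax3 at 0, summed to 15225 to 15627 at 96 h, which overlapped with 15211 to 16366 at 0 h. The same sum was 8926 to 9235 on 2.5 µg/mL, against 8636 to 8886 without doxycycline, where Zic1 was also at 0. Primitive endoderm markers, with none at 0, summed to 10972 to 11610 at 96 h, against 12460 to 12515 at 0 h. The same sum was 7457 to 7585 on 2.5 µg/mL, against 7093 to 7121 without doxycycline. Fewer cells with an RNA and less of it per cell cannot be told apart in these bulk samples.

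In the genetic series no member passed the test between the clones without Argonaute and E7, where 1.51% of the 13142 genes tested were called by limma, and limma-voom called 0 members too. Nog and Msx2 had an unadjusted p under 0.05. Nog had 0 and 12 reads in the clones (0 and 5.79 normalised), against 24.3 to 66.7 normalised reads in E7, 20.1 and 25.9 in B9, and 22.2 and 34.1 in the wild type. The clones lay below every other library of the series, and a count of 0 in that library allows up to 4.00 normalised reads. The fitted log2 value against E7 was -3.78 ± 0.89 (adjusted p = 0.0645), and it passed without the deeper clone library (-5.16, adjusted p = 0.00814), as did Id2 (-2.03, adjusted p = 0.034). Against the wild type it passed (-3.45 ± 0.98, adjusted p = 0.0332). It did not without the clone library at 0 (-2.07, adjusted p = 0.177) or without either wild type library (adjusted p = 0.113 and 0.147). These values depend on the 1 added to each normalised read count.

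Msx2 had 154 and 156 normalised reads in the clones, against 48.3 to 68.8 in E7, 11.5 and 42.2 in B9, and 66.6 and 83.8 in the wild type. The clones lay above every other library. The log2 value was 1.40 ± 0.56 against E7 (adjusted p = 0.201), 1.04 ± 0.61 against the wild type (adjusted p = 0.248) and 2.75 ± 0.61 against B9 (adjusted p = 0.0173), the last lost without the B9 library of 12 reads (1.85, adjusted p = 0.108) or the shallower clone library (2.73, adjusted p = 0.0742). It was the only member called between the clones and B9, where 13% of all genes were called. Nog (-3.20 ± 0.98, adjusted p = 0.0543) and Id4 (1.44 ± 0.49, adjusted p = 0.0765) had an unadjusted p under 0.05 there, and Nog passed without the deeper clone library (-4.58, adjusted p = 0.0099).

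Against the wild type, Id4 was higher and Id1 lower both in the clones and in E7. Id4 had 365 and 829.9 normalised reads in the clones, 521 to 714 in E7, and 157 and 259 in B9, against 76.5 and 178 in the wild type. The log2 change against the wild type was 2.23 ± 0.49 in the clones (adjusted p = 0.0121) and 2.41 ± 0.45 in E7 (adjusted p = 0.0168), B9 overlapped with the wild type (0.79, adjusted p = 0.943), and the clones and E7 overlapped (-0.18 ± 0.45, adjusted p = 0.854). Id1 had 445 and 566 in the clones, 351 to 808 in E7, and 458 and 697 in B9, against 1341 and 2490.1 in the wild type. It was lower than in the wild type in the clones (-1.86 ± 0.45, adjusted p = 0.0174) and in E7 (-1.97 ± 0.41, adjusted p = 0.0253), and at -1.69 ± 0.45 in B9 it did not pass (adjusted p = 0.23).

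The wild type libraries differ from the mutants at Blm as well. Without the deeper wild type library, Id4 against the wild type was 1.63 in the clones (adjusted p = 0.095) and 1.81 in E7 (adjusted p = 0.144), and Id1 was -1.42 (adjusted p = 0.134) and -1.52 (adjusted p = 0.212). The call of Id1 in the clones was also lost without the shallower clone library (adjusted p = 0.0508). In E7 both calls were lost without the shallower wild type library (adjusted p = 0.0505 for Id4 and 0.09 for Id1) or the second deepest E7 library (adjusted p = 0.0687 and 0.0951). That of Id1 was lost without the shallowest E7 library (adjusted p = 0.0725). In all, 1 member rose and 2 fell in the clones against the wild type (18.6% of all genes called), and 1 rose and 1 fell in E7 (4.56%). Bmp4 was not called but had an unadjusted p under 0.05 in both contrasts. Its libraries in the clones and in E7 all lay below those of the wild type. Between B9 and the wild type, and between E7 and B9, limma and limma-voom called 0 members (0.0685% of all genes in each), with Id1 and Msx2 and with Id4 and Msx2 at an unadjusted p under 0.05.

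Libraries of 1 genotype differed widely for several members. Bmp4 had 136 and 164 normalised reads in the clones, 48.6 to 292 in E7, and 182 and 873 in B9, against 619.7 and 1015 in the wild type. The log2 value was -2.40 ± 0.86 for the clones against the wild type (adjusted p = 0.0735, or 0.0489 with limma-voom) and -0.10 with a 95% interval of -1.82 to 1.63 against E7 (adjusted p = 0.959). Without the shallowest E7 library the value against the wild type was again -2.40, with a limma adjusted p of 0.0213. Id2 had 225 and 1393 in the clones, 799.9 to 998 in E7, and 502 and 706 in B9, against 538 and 1702 in the wild type. Its log2 value in the clones against the wild type was -0.77, or -2.08 without the deeper clone library. Id3 had 424 and 544 in the clones, 118 to 815 in E7, and 167 and 593 in B9, against 379 and 1389 in the wild type. Bmp7 lay between 73.8 and 235 in the whole series, Bambi between 272 and 440.3, and Msx1 between 9.59 and 33.2, and none of the 3 passed in any contrast. Markers of other cell types also differed between these groups, and their part in the values above was not tested. Fibroblast markers summed to 14173 to 22869 normalised reads in the clones, 4336 to 11158 in E7, and 3620 to 5554 in B9, against 3104 to 3811 in the wild type. Most of that sum is Vim, the vimentin gene, with means of 18346 in the clones, 8055 in E7 and 2898 in the wild type. Col1a1 ran the other way, with means of 23.6 in the clones and 48.2 in E7, against 282 in the wild type, and Col1a2, Col3a1 and Postn were at 0 in the clones and in E7. Mesoderm markers summed to 574 to 851 in the clones, 341 to 513 in E7, and 290 to 307 in B9, against 326 to 419 in the wild type. Trophoblast markers summed to 5023 to 6604 in the clones, 3311 to 4849 in E7, and 3259 to 3408 in B9, against 5916 to 8199 in the wild type. Among them Krt8 and Plet1 were called higher in the clones than in E7, and Krt7, Krt8 and Krt18 lower in E7 than in the wild type. Neural and neural crest markers summed to 9340 to 14683 in the clones, 5496 to 9477 in E7, and 4232 to 5558 in B9, against 5670 to 7150 in the wild type. Primitive endoderm markers summed to 6620 to 8490 in the clones, 5281 to 7453 in E7, and 7059 to 7633 in B9, against 4168 to 4674 in the wild type.

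In introns 5 members were tested and 0 were called by limma in any genetic contrast, with 0 at an unadjusted p under 0.05, where the share of all genes called was 0.131% for the clones against E7, 4.01% against the wild type and 1.26% against B9, 0.558% for E7 and 0% for B9 against the wild type, and 0.00872% for E7 against B9.

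**Figure D4:**
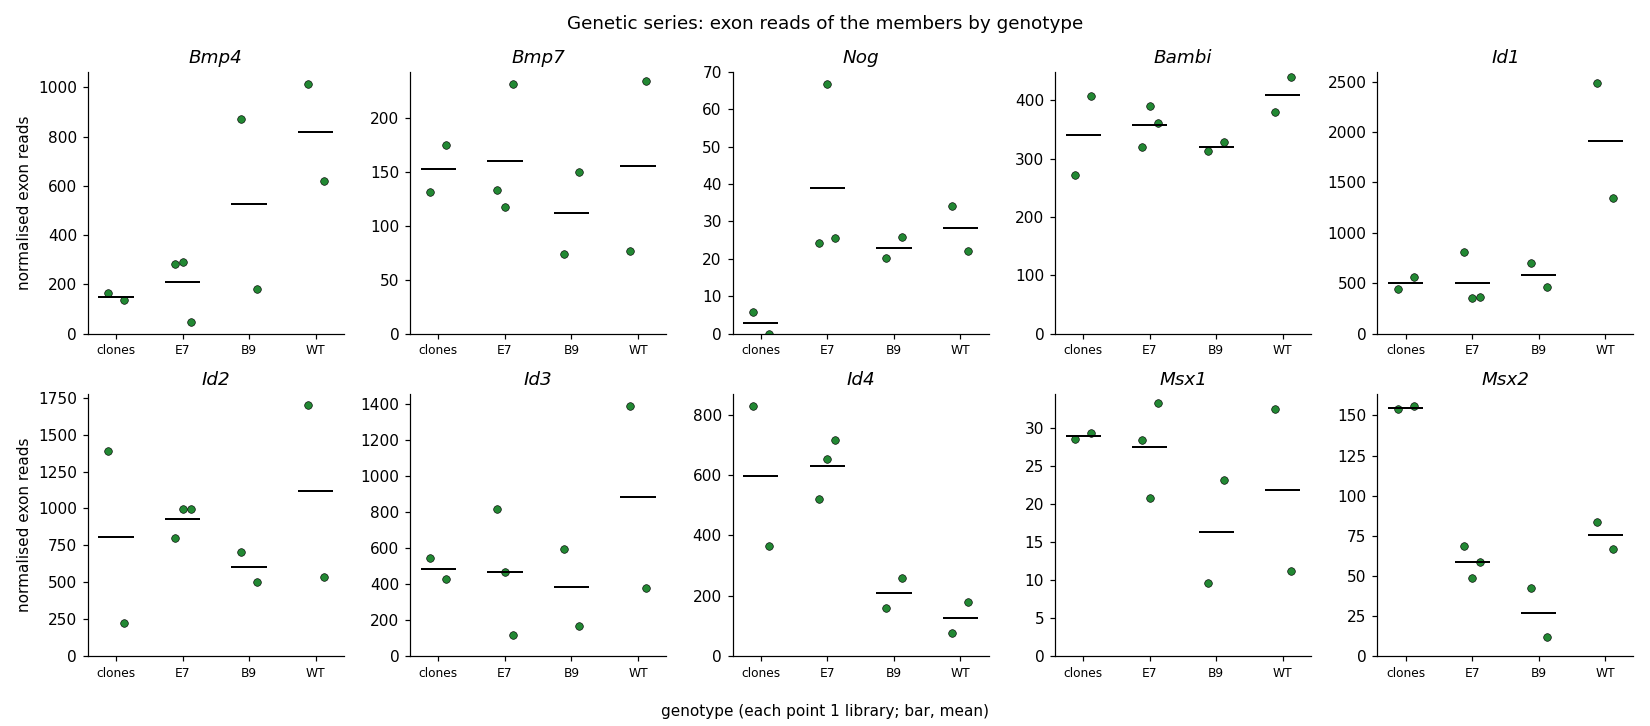
Normalised exon reads (y axis) of the 10 members in each library of the genetic series, by genotype (x axis): clones without Argonaute, E7, B9 and wild type (WT); points are libraries and bars are means. The clones lie below every other library for Nog and above every other library for Msx2, and Id4 is lowest and Id1 highest in the wild type on average.

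Over all genes, the standard error of a log2 change had a median of 0.336 for the clones against E7, 0.0797 for the time course and 0.0910 for the rescue. The 95% intervals of Bmp4 (-1.82 to 1.63) and Id3 (-1.31 to 2.18) in the clones against E7 include both 0 and the change at 96 h in the time course, as does that of Bambi (-0.73 to 0.55) and that of Bmp7 (-1.21 to 1.17). The interval of Id4 (-1.17 to 0.81) includes 0 but not its change of 1.07 at 96 h. Those of Nog (-5.74 to -1.81) and Msx2 (0.18 to 2.62) include the change at 96 h and not 0, though neither passed after adjustment.

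**Figure D5:**
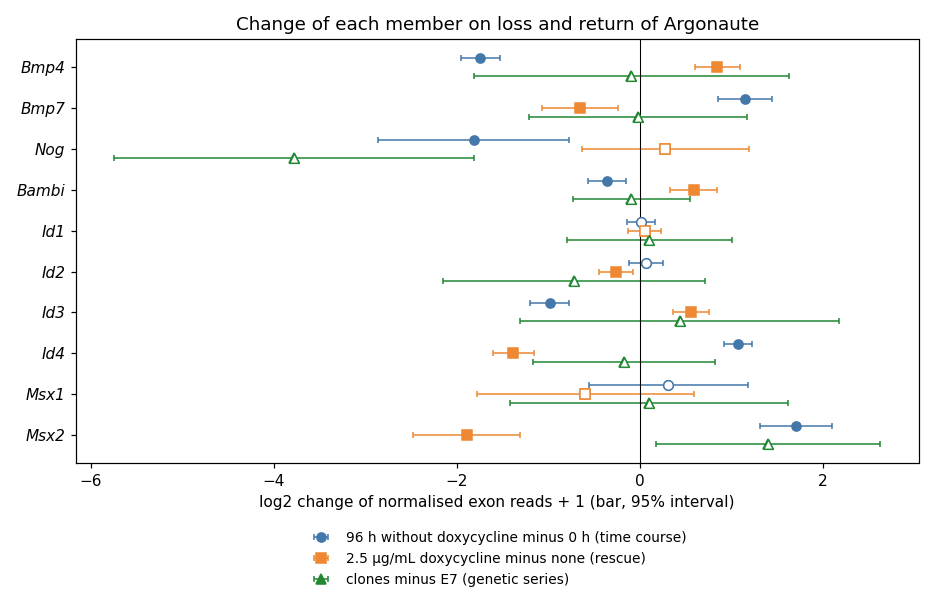
Log2 change of normalised exon reads + 1 (x axis; bars are 95% intervals) of each member at 96 h against 0 h (blue circles), at 2.5 µg/mL doxycycline against none (orange squares) and in the clones against E7 (green triangles); filled symbols passed at an adjusted p below 0.05. Bmp4, Bmp7, Bambi, Id3, Id4 and Msx2 have opposite signs in the time course and the rescue and filled symbols in both, and no clone value is filled.

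Other genes of the pathway were read from fixed lists, whose members were chosen with earlier results of these data known. Of the 11 BMP receptors and co-receptors tested, 9 rose and 1 fell at 96 h (32.4 and 32.5% of all genes), with a median log2 change of 0.79 beside -0.01 for all genes. At 2.5 µg/mL 1 rose and 8 fell (31.8 and 32% of all genes), with a median of -0.51 beside 0.00. The type I receptor Bmpr1b had 183 ± 13.1 normalised reads at 96 h and 34.6 ± 5.67 at 0 h (SD, n = 2 each; log2 change 2.38 ± 0.23, adjusted p = 2.57e-09). It had 27.5 ± 0.857 at 2.5 µg/mL, against 65.8 ± 1.62 without doxycycline (-1.23 ± 0.36, adjusted p = 0.00424). Rgma, a BMP co-receptor, had 834 ± 3.89 at 96 h and 289 ± 26.1 at 0 h (1.53 ± 0.10, adjusted p = 4.43e-12) and fell by 1.47 ± 0.14 at 2.5 µg/mL (adjusted p = 4.21e-10). Its relative Hfe2, hemojuvelin, went the other way, with 94.1 ± 12.2 at 96 h and 211 ± 9.08 at 0 h (-1.16 ± 0.18, adjusted p = 4.41e-06) and a rise of 1.66 ± 0.26 at 2.5 µg/mL (adjusted p = 2.82e-06). Hfe2 was also the only receptor gene called in the clones, at 13.7 ± 0.457, against 111 ± 14.8 in E7 (-2.93 ± 0.43, adjusted p = 0.01). The type II receptor Bmpr2 fell by 1.17 ± 0.06 at 2.5 µg/mL (adjusted p = 3.96e-16).

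Of 14 BMP Smads and regulators, 7 rose and 3 fell at 96 h, and 4 rose and 6 fell at 2.5 µg/mL. For this list and those that follow, 32.4% of all genes rose and 32.5% fell at 96 h, and 31.8% rose and 32% fell at 2.5 µg/mL. Tob1, which is known to restrain BMP Smads in mouse bone, had 6845 ± 85.6 normalised reads at 96 h and 1864 ± 21.9 at 0 h (1.88 ± 0.05, adjusted p = 3.09e-19). It had 1875 ± 1.81 at 2.5 µg/mL, against 4589 ± 46.5 without doxycycline (-1.29 ± 0.06, adjusted p = 5.89e-17). Its paralogue Tob2 rose by 1.05 ± 0.06 at 96 h (adjusted p = 4.30e-13). Of the 15 other BMP and Gdf ligands 8 were expressed enough to be tested in the time course, of which 2 rose and 2 fell at 96 h. Of the 6 tested in the rescue 2 rose and 1 fell at 2.5 µg/mL. The ligand Bmp6 moved as Bmp4 did, with 6.91 ± 1.22 at 96 h and 60.9 ± 19.1 at 0 h (-2.94 ± 0.42, adjusted p = 1.54e-06). It had 47.2 ± 14.9 at 2.5 µg/mL, against 7.36 ± 4.84 without doxycycline (2.62 ± 0.58, adjusted p = 0.000288). Bmp8b rose by 1.06 ± 0.28 at 2.5 µg/mL (adjusted p = 0.00147).

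Of 17 other antagonists and modulators 10 were tested in the time course, of which 5 rose and 3 fell at 96 h. Of the 9 tested in the rescue 2 rose and 3 fell at 2.5 µg/mL. Chrdl1, a chordin-like antagonist, had 1.98 ± 0.0504 normalised reads at 96 h and 16.1 ± 7.30 at 0 h (-2.45 ± 0.64, adjusted p = 0.0018), and so fell with Nog. Its 96 h mean lies below the 2.91 and 3.02 normalised reads that 3 counts make in those libraries. The log2 value therefore depends on the 1 added to each normalised read count. Kcp, which is known to raise BMP signalling in mouse kidney, rose by 1.38 ± 0.23 at 96 h (adjusted p = 1.50e-05) and fell by 1.50 ± 0.43 at 2.5 µg/mL (adjusted p = 0.0033). Tll1, a protease that cuts chordin, rose by 1.26 ± 0.28 at 96 h (adjusted p = 0.000378) and fell by 1.53 ± 0.47 at 2.5 µg/mL (adjusted p = 0.00654), and Fstl3, a follistatin-like antagonist, rose by 1.17 ± 0.29 at 2.5 µg/mL (adjusted p = 0.000984).

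Of 17 other genes known as targets of Smad1 and Smad5 and tested in the time course, 6 rose and 5 fell at 96 h (32.4 and 32.5% of all genes), with a median log2 change of -0.10. Of the 16 tested in the rescue 6 rose and 6 fell at 2.5 µg/mL (31.8 and 32% of all genes). Neither count is far from the share over all genes. Dusp9, a phosphatase that BMP induces in mouse ES cells, had 2575 ± 236 normalised reads at 96 h and 6873 ± 166 at 0 h (-1.42 ± 0.06, adjusted p = 3.36e-16) and rose by 1.76 ± 0.06 at 2.5 µg/mL (adjusted p = 3.47e-19). The transcription factor genes Klf2, Gata2 and Tbx20 and the epoxide hydrolase gene Ephx1 all rose at 96 h, in that order by log2 changes of 1.23, 1.29, 1.29 and 1.88, and fell on 2.5 µg/mL by 1.12, 2.05, 1.76 and 1.66. Tbx2 fell by 1.22 ± 0.38 at 96 h (adjusted p = 0.00728), and Dlx3 rose by 1.96 ± 0.70 at 2.5 µg/mL (adjusted p = 0.0161). Of the 6 E proteins and other partners of Id proteins 4 rose and 2 fell at 96 h, and 1 rose and 2 fell at 2.5 µg/mL. The E protein gene Tcf4 was lower, with 1559 ± 42.3 at 2.5 µg/mL, against 3122 ± 99.6 without doxycycline (adjusted p = 7.78e-14). Between the clones and E7 none of these lists other than the receptors had a called gene.

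MicroRNAs that mouse ES cells are known to hold in quantity are shown for their seeds, since these set which messenger RNAs Argonaute reaches. Mature sequences are from RefSeq (GRCm38.p6), 5′ to 3′, with the seed, bases 2 to 8, in capitals; the pair from the miR-290 and miR-302 clusters share a seed, and the other pair come from the miR-17-92 cluster.
mmu-miR-294-3p: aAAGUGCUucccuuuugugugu
mmu-miR-302d-3p: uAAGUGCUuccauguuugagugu
mmu-miR-17-5p: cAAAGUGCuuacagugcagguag
mmu-miR-19b-3p: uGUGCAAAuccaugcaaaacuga
The complements of these seeds are AGCACTT for miR-294-3p and miR-302d-3p, GCACTTT for miR-17-5p and TTTGCAC for miR-19b-3p. They were searched in the longest annotated 3′ untranslated region of each member on the strand of the gene, with GTGCAAT for miR-92a-3p and TGCTGCT for miR-16-5p. In that order they stood in 15.1, 12.2, 11.3, 6.64 and 21.3% of 17864 such regions, whose median length was 978 bases. Among the members there were matches in Id2, Id4 and Bambi, whose regions are 785, 3093 and 4004 bases long. The matches of Id4 and Id2 are shown with the site in capitals (GRCm38).
Id4, site of miR-17-5p, chr13:48265189-48265211 (plus strand): taaaaaggGCACTTTttgccttt
Id4, site of miR-19b-3p, chr13:48263146-48263168 (plus strand): ttacttttTTTGCACgttcacga
Id2, site of miR-19b-3p, chr12:25094519-25094541 (minus strand): ctttttctTTTGCACaagaagaa
Bambi had 1 match each for the seeds of miR-294-3p, miR-17-5p and miR-19b-3p. At 96 h against 0 h the log2 changes of the genes with a match were 1.07 for Id4, 0.07 for Id2 and -0.36 for Bambi. The counted exons of Id4 have 1660 bases, fewer than the 3093 of its searched region, so they need not hold both of its matches. Bmp4, Bmp7, Nog, Id1, Id3, Msx1 and Msx2 had none of these letters in this region.

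Across the 14 TT-FHAgo2 libraries, with each series centred on its own mean, the 2 genes most like each member were sought among 13149 genes by Pearson's r of log2 values. The libraries share groups, so the values describe these libraries only. Bmp4 was most like Icosl (r = 0.99) and Morc2a (0.98), Bmp7 like Grhl3 and Plekhg6 (0.97 each), Nog like Opa1 (0.88) and Stag1 (0.87), and Bambi like Arl14epl (0.97) and Idh3a (0.96). Id1 was most like Kcnc2 (0.90) and Nsfl1c (0.89), Id2 like Anapc5 and Ankrd50 (0.88 each), Id3 like Ino80c (0.99) and Vegfc (0.98), and Id4 like Tmppe (0.99). Msx1 was most like Cnbd2 (0.85) and Hspa1a (0.80), and Msx2 like Rab11a and Stard8 (0.97 each). Among the members themselves the highest value was that of Id4 with Msx2 (0.89), and the lowest were those of Bmp7 with Id3 (-0.90), Bmp4 with Msx2 (-0.87) and Bmp4 with Id4 (-0.86).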

How the data were processed

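Strand-specific libraries of polyadenylated RNA were made from mouse ES cells on gelatin, per the labels' protocols. The submitters' processing notes name TopHat2 2.0.12, DESeq and mm10; how reads were counted, and on which annotation, is not given in the sources used here. The deposited signal is the authors' mean of normalised reads over the libraries of a group, per the file headers, in exon and intron tables of each series. Reads of single libraries were worked out from these means, as sums of whole reads times 1 step per library. All members were solved; 101 abundant exon genes of E7 (17.7% of its signal) and 1 intron gene were not, and stayed out of the tests. The log2 of normalised reads + 1 entered limma 3.58.1 (R 4.3.3, trended prior), with 1 fit per table over its groups, for genes averaging at least 10 in the series. Calls needed a Benjamini-Hochberg adjusted p below 0.05 over all genes tested. The fixed design foresaw values of single libraries; since the tables hold group means, recovered values took their place. The fit was tested on simulated data with 200 genes changed and the spread of abundant genes. For the clones against E7 it called 6% of 1.5-fold and 48% of 2-fold exon changes. The shares were 80 and 88% for 96 h against 0 h, and 88 and 96% for 2.5 µg/mL against none. Of the exon calls 4.55, 4.71 and 2.06% were false in that order, and of the intron calls 6.92, 4.15 and 1.68%. The members, lists and tests were chosen with earlier results of these data known. All members are named, as are pathway genes called with a log2 change of at least 1 at 96 h, on 2.5 µg/mL or in the clones against E7, and the 2 genes most like each member, of which 1 is not reported here. Floors (3 counts) cover counting error only.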

Additional observations from a re-analysis of the deposited data

How the results depend on the processing

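No paired analysis was possible because the deposited columns carry no replicate numbers. Alternatives were a pseudocount of 0.5 or 8, no filter on low values, a minimum mean of 50, limma-voom on the recovered reads, size factors refitted by medians of ratios and, chosen after seeing the data, scaling to total reads. Among single members in exons, 2013 values kept their side of the threshold, 45 kept their direction but no longer passed, and 14 came to pass. Of the values that passed in the main or the other setting, 0 reversed. Changes of sign between values that passed in neither were not counted. Without the filter, the number of members called in introns was 1 for the clones against the wild type, 5 at 96 h and 0 between 24 and 48 h, against 0, 3 and 1 with it. Id4, and at 96 h Msx1 and Msx2, passed on introns that the filter leaves out, and more genes were then tested. Leaving out 1 library at a time gave, in exons, 0 to 2 members called for the clones against E7, 0 to 4 against the wild type, 0 to 2 against B9, 0 to 2 for E7 against the wild type, 4 to 6 between 24 and 48 h, 2 to 3 between 48 and 96 h, 3 to 5 at 0.1 µg/mL, 5 to 7 at 2.5 µg/mL and 1 to 6 between the doses. At 24 h and 96 h it gave 6 and 7 each time, and at 48 h 7 to 9. In introns it gave 0 to 1 for the clones against the wild type, 1 to 3 at 24 h, 2 to 4 at 48 h, 2 to 3 at 96 h, 0 to 1 between 24 and 48 h, 0 to 1 between 48 and 96 h and 0 to 1 between the doses. A lone library was then assumed to vary like the other groups. The depth limits Nog and Msx1 most, with 0 to 61 reads a library.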
